A study of Mus musculus with 6 samples.

Results

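RNA was sequenced from primary aortic EC of adult wild-type C57BL/6 mice that carried either a lentiviral vector for Meis1 (Meis1-OE) or a YFP vector (YFP-CTRL), with 3 libraries per condition. Meis1 is a homeobox transcription factor known from blood stem cells. In both conditions the cells were sorted at 72 h as YFP+CD31+VEC+, re-plated and expanded to confluency before harvest, so each library is a population selected for its vector and grown in culture. The 10 genes described here are 7 alpha chains (Itga8, Itga5, Itgav, Itga6, Itga1, Itga2 and Itga4) and 3 beta chains (Itgb1, Itgb3 and Itgb5), found by symbol among 54429 genes of the deposited table. The set was built around Itga8 because of its rise in this same comparison, and Itga8 is therefore described without a test. The other 9 chains were chosen as its partner and sister chains, and all 10 passed the filter on low counts that left 16065 genes for testing.

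Integrins are cell surface receptors made of 1 alpha and 1 beta chain. They bind the extracellular matrix outside the cell and, through talin, kindlin and other adaptors, the actin cytoskeleton inside it. The alpha chain largely sets the ligand, and the beta1 chain pairs with most alpha chains. In blood vessels the endothelium rests on its basement membrane through laminin- and collagen-binding integrins and binds fibronectin and other ligands that carry an Arg-Gly-Asp (RGD) motif through alpha5beta1 and the alphav integrins. The alpha8 chain, encoded by Itga8, pairs only with beta1, binds RGD ligands including nephronectin, and is known from smooth muscle, mesangial cells and kidney development.

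Library totals ran from 34176592 to 47956569 counts. Libraries are named by the letter their column carries, and wherever 3 values are given for a condition they follow the order A, B, C. Meis1 was at 2959, 3476 and 3221 CPM (read counts scaled to library size with TMM factors) with Meis1-OE, and at 1.15, 1.42 and 1.87 CPM with YFP-CTRL. The YFP-CTRL libraries differed among themselves in cell cycle genes. Their cell cycle score, the mean log2(CPM + 1) over 15 S and G2/M phase genes, was 4.15, 5.11 and 6.40 with YFP-CTRL and 6.42 to 6.47 with Meis1-OE. The Meis1-OE scores lay close together and above every YFP-CTRL score. A fit with the score as a covariate therefore takes its slope almost only from the YFP-CTRL libraries. Such a fit cannot tell cell cycle state and condition apart. Of all tested genes, 665 (4.14%) rose and 438 (2.73%) fell with Meis1-OE (edgeR quasi-likelihood test, Benjamini-Hochberg adjusted p under 0.05), together 6.87%. Over all of them the median log2 fold change was 0.01, and 0.15 on library totals without TMM factors.

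Itga8 went from nearly no reads to a moderate level. It was counted 286, 956 and 1132 times with Meis1-OE, and 0, 5 and 3 times with YFP-CTRL. This is 6.25, 21.0 and 24.4 CPM against 0, 0.122 and 0.0660 CPM. Every Meis1-OE library lay far above every YFP-CTRL library, and among the Meis1-OE libraries A was the lowest by a wide margin. The means were 17.2 ± 9.67 CPM and 0.0628 ± 0.0613 CPM (SD, n = 3 each). Over the summed counts of each condition, 2374 against 8, the normalized ratio was 259.6, with a 95% exact Poisson interval of 131.5 to 602 that covers counting error only. Of the 3 YFP-CTRL libraries, 2 were at or under a floor of 3 counts, so the control level is barely detectable at this depth. The highest Meis1-OE library exceeded the lowest 3.91-fold for Itga8 and 1.17-fold for Meis1. In bulk libraries such as these, fewer cells of a type and less RNA per cell cannot be told apart, so whether all cells or some of them carried the transcript is unknown.

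**Figure D1:**
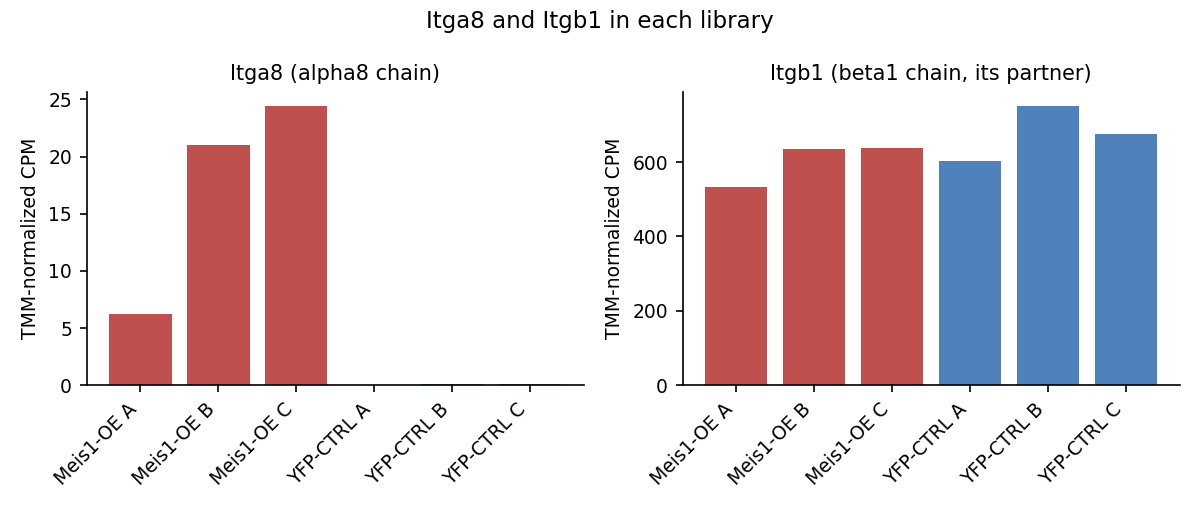
TMM-normalized CPM of Itga8 and of its partner Itgb1, 1 bar per library, with each panel on its own axis from 0. Itga8 reaches 6.25 to 24.4 CPM with Meis1-OE (red) and is invisible with YFP-CTRL (blue), while Itgb1 lies between 532 and 751 CPM in all 6.

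In the RefSeq annotation of GRCm38.p6, the assembly also named mm10, Itga8 lies on the minus strand at chr2:12106632-12301985. The 209 bases just upstream of its annotated record are shown because they border the start of the gene that changed from near 0, and no capitals appear because none of the motifs searched occurs in them.

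Itga8 upstream, chr2:12301986-12302194, minus strand: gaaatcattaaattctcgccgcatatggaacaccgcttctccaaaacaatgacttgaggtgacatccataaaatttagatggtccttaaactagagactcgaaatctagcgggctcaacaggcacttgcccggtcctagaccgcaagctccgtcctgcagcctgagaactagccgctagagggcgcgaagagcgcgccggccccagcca

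Itga8 site, chr2:12301895-12301920, minus strand: gcacagggcgagaggaCTGTCActgt

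The second sequence lies after the transcript start used by the promoter table. Its capitals mark the reverse complement of TGACAG, the core that Meis proteins are known to bind, at bases 41 to 46 after that start. A promoter window of 300 bases (250 before and 50 after the start) was given for 8 of the 10 genes. TGACAG, searched on both strands, was found in 2 of these 8 windows (Itga8 and Itgb5) and in 19.2% of all 32851 windows. The Pbx-Hox motif TGATTNAT, also searched on both strands, was found in 0 of the 8 and in 3.22% of all windows. A match is a description of the letters in the window and not of binding.

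The annotated surroundings of Itga8 were counted in the same libraries. The long noncoding RNA gene E030013I19Rik overlaps the 5′ end of Itga8 by 740 bases and spans the upstream sequence above. It had 0, 2 and 6 counts with Meis1-OE and 0, 1 and 0 with YFP-CTRL, and since no strand setting of the counting is known, reads of the overlap could have gone to either gene. The nearest record on the other side, the pseudogene Gm13310, had no count. Mindy3, a deubiquitinase gene and the nearest protein-coding gene with counts, was at 25.9, 32.9 and 32.8 CPM in Meis1-OE and at 25.95, 29.5 and 24.2 CPM with YFP-CTRL, a log2 fold change of 0.20 (adjusted p = 0.411).

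None of the 9 other chains passed the threshold. By edgeR, 0 were higher and 0 lower at an adjusted p under 0.05, where 4.14% and 2.73% of all genes were called (6.87% in either direction), and DESeq2 also called 0. At an unadjusted p under 0.05, which 26.2% of all tested genes reached by edgeR, 2 were higher (Itga1 and Itgav) and 1 was lower (Itgb5), and DESeq2 had 1 and 1. The median log2 fold change of the 9 was -0.11, against 0.01 for all tested genes, and 4 of the 9 were positive. Groups did not overlap for Itgav (higher) and Itgb5 (lower), as for 17.2% and 15.9% of all tested genes in the same directions.

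**Figure D2:**
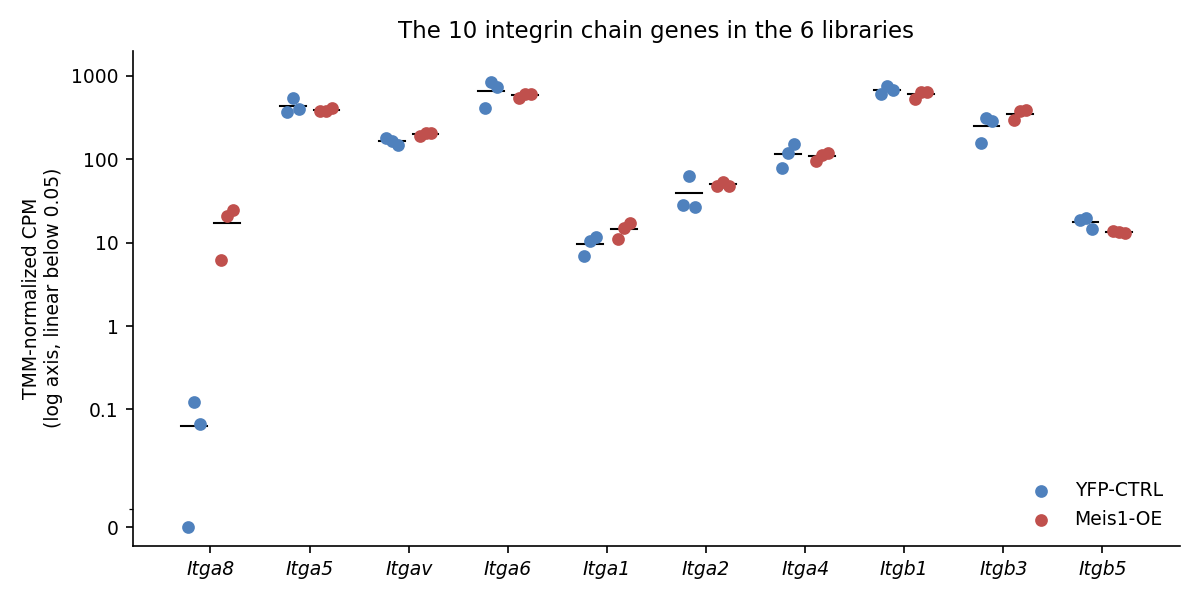
TMM-normalized CPM of the 10 integrin chain genes on a log axis that is linear below 0.05, with 1 point per library and a black line at the mean of the 3 libraries of a condition. Itga8 separates the conditions by far, while the points of most other chains overlap or nearly meet.

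Itgb1, the only known beta partner of the alpha8 chain, was at 532, 636 and 639 CPM with Meis1-OE and at 603, 751 and 675 CPM with YFP-CTRL. The conditions overlapped, with a log2 fold change of -0.17 (95% interval -0.47 to 0.14, adjusted p = 0.453, edgeR) and a range of -0.26 to -0.03 over the 13 alternatives. Per kb of transcript, Itga8 stood at 0.00772, 0.0217 and 0.0251 of Itgb1 with Meis1-OE, and at most at 0.000107 in a YFP-CTRL library. Even where it was highest, the Itga8 transcript was therefore a small part of the Itgb1 transcript level.

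Among the 10 chains, the other alpha chains that bind RGD ligands are alpha5 and alphav. Alpha5 is the classical fibronectin receptor chain. Alphav binds vitronectin and fibronectin and pairs with beta1, beta3 and beta5 among others. Itgav was at 190, 209 and 207 CPM with Meis1-OE and at 182, 163 and 150 CPM with YFP-CTRL. All Meis1-OE libraries were higher, by a small margin over YFP-CTRL library A. The means were 202 ± 10.2 and 165 ± 16.0 CPM (SD, n = 3 each). On the log2 scale the difference was 0.29 (standard error 0.11, 95% interval 0.03 to 0.55), and edgeR gave an adjusted p of 0.160. Its log2 fold change lay between 0.21 and 0.44 and its adjusted p between 0.0704 and 0.440 under all 13 alternatives. Itga5 was at 382 to 412 CPM in Meis1-OE and at 367, 544 and 401 CPM with YFP-CTRL, with full overlap and a log2 fold change of -0.16 (95% interval -0.53 to 0.22, adjusted p = 0.575 from edgeR). YFP-CTRL library B was the highest of all, and the log2 fold change was 0.04 without it, -0.29 without YFP-CTRL library A and -0.01 on library totals.

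The beta3 and beta5 partners of alphav had differences of opposite sign, neither past the threshold. Itgb3, which with alphav forms the vitronectin receptor of activated endothelium, was at 293, 377 and 389 CPM with Meis1-OE and at 157, 314 and 286 CPM with YFP-CTRL. YFP-CTRL library A stood lowest and Meis1-OE library A fell between the YFP-CTRL values. The log2 fold change was 0.48 (95% interval -0.12 to 1.09, adjusted p = 0.281), and 0.08 once the cell cycle score of the libraries entered the edgeR model as a covariate (adjusted p = 0.910). Over all 13 alternatives it lay between 0.08 and 0.68 for Itgb3, and was 0.22 without YFP-CTRL library A. Itgb5, a second vitronectin-binding partner of alphav, was at 13.9, 13.6 and 12.9 CPM with Meis1-OE and at 18.8, 19.8 and 14.8 CPM with YFP-CTRL. Its Meis1-OE values were close together and all below the YFP-CTRL values, and YFP-CTRL library C was nearest. For Itgb5 the log2 fold change was -0.40 (95% interval -0.74 to -0.05, adjusted p = 0.146), and -0.53 when YFP-CTRL library C was left out (adjusted p = 0.0125, edgeR). It was -0.25 on library totals (adjusted p = 0.321) and -0.19 once the cell cycle score was added (adjusted p = 0.567).

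Ratios of chains within a library do not depend on the scaling between libraries. Per kb of transcript, the Itgb3 to Itgb5 ratio was 11.3, 14.9 and 16.2 with Meis1-OE and 4.50, 8.56 and 10.5 with YFP-CTRL. The conditions did not overlap. Of 7 ratios tested, which were chosen after the values were seen, the same separation was found for Itgav to Itgb1, Itgav to Itgb5 and Itgav to Itga5. Each of these 4 ratios was higher in Meis1-OE EC with a two-sided exact permutation p of 0.1, the smallest that 3 libraries against 3 allow, and 0.175 after Benjamini-Hochberg adjustment over the 7. Itga5 to Itgb1, Itga6 to Itgb1 and Itgav to Itgb3 overlapped between the conditions, with log2 differences of 0.03, 0.06 and -0.24.

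Itga6 encodes the laminin-binding alpha6 chain, which pairs with beta1 and beta4. It was at 545, 614 and 610 CPM with Meis1-OE and at 413, 839 and 732 CPM with YFP-CTRL. The Meis1-OE values sat inside the wide range of the YFP-CTRL values. Its log2 fold change was -0.16 (95% interval -0.74 to 0.41, adjusted p = 0.711 from edgeR), and 0.05 without YFP-CTRL library B. Leaving out YFP-CTRL library A gave -0.43 (adjusted p = 0.0760), adding the cell cycle score gave -0.54 (adjusted p = 0.320) and library totals gave -0.01.

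The collagen-binding chains alpha1 and alpha2 pair with beta1. Itga1 was at 11.1, 14.9 and 17.3 CPM with Meis1-OE and at 6.94, 10.5 and 11.6 CPM with YFP-CTRL. Meis1-OE library A, lowest of its group as for Itga8, lay below YFP-CTRL library C. For Itga1 the log2 fold change was 0.57 (95% interval 0.0036 to 1.14, adjusted p = 0.189), and 0.22 once the cell cycle score was added (adjusted p = 0.718, edgeR). The 13 alternatives for Itga1 ran from 0.22 to 0.73, with 0.37 without YFP-CTRL library A. Itga2 was at 47.9, 53.7 and 47.7 CPM with Meis1-OE and at 28.3, 63.4 and 26.4 CPM with YFP-CTRL. YFP-CTRL library B stood apart, above every other library. The log2 fold change of Itga2 was 0.34 (95% interval -0.43 to 1.10, adjusted p = 0.549), and 0.87 without YFP-CTRL library B (adjusted p = 0.0411 from edgeR). Leaving out YFP-CTRL library A gave 0.13, and leaving out YFP-CTRL library C gave 0.10 (adjusted p = 0.854 and 0.853).

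Itga4 encodes the alpha4 chain, which binds VCAM-1 and a fibronectin segment without RGD and is best known from leukocytes and blood progenitors. Itga4 was at 94.9 to 118 CPM with Meis1-OE and at 78.5, 119 and 153 CPM with YFP-CTRL. The YFP-CTRL values ran in the order of the cell cycle score of these 3 libraries. Those of Itga1 ran in the same order and those of Itgav in the reverse order, and a link was not tested. For Itga4 the log2 fold change was -0.11 (95% interval -0.66 to 0.44, adjusted p = 0.813). It was 0.04 on library totals and 0.12 without YFP-CTRL library C, and -0.57 once the cell cycle score was added (adjusted p = 0.0855, edgeR). Its sign therefore depended on the scaling and on 1 library.

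Levels were compared between chains per kb of the longest protein-coding transcript. In YFP-CTRL EC the order was Itgb1 (177 ± 19.4 CPM per kb), Itga6 (153 ± 51.4), Itga5 (99.9 ± 21.5), Itgb3 (44.0 ± 14.6), Itgav (23.4 ± 2.27), Itga4 (11.9 ± 3.80), Itga2 (9.35 ± 4.94), Itgb5 (5.75 ± 0.857), Itga1 (1.62 ± 0.409) and last Itga8 (0.0108 ± 0.0106), each as SD with n = 3. Values of the libraries overlapped between the neighbours Itgb1 and Itga6, Itga6 and Itga5, Itga4 and Itga2, and Itga2 and Itgb5. In Meis1-OE EC Itga8 reached 2.97 ± 1.66 CPM per kb, between Itgb5 (4.37 ± 0.168) and Itga1 (2.42 ± 0.522). Its library values of 1.08, 3.62 and 4.21 overlapped those of both. The order above them was as with YFP-CTRL except that Itga2 (11.8 ± 0.803) and Itga4 (11.1 ± 1.24), whose libraries overlapped, changed places.

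Among the 7 alpha chains, the makeup by CPM per kb was dominated by Itga6 and Itga5 in every library. Itga3, an alpha chain outside the 7, stood at 160 ± 17.3 CPM per kb with YFP-CTRL and 106 ± 8.57 with Meis1-OE (SD, n = 3 each). Its mean was above that of Itga5 in both conditions, so the shares describe the 7 only. Itga8 made up 0.407%, 1.25% and 1.42% of the sum with Meis1-OE and at most 0.00568% with YFP-CTRL. Itga6 held 48.3% ± 0.719 in Meis1-OE and 50.4% ± 6.32 in YFP-CTRL EC, and Itga5 held 31.7% ± 1.37 and 33.8% ± 4.01 (SD, n = 3 each). Itgav held 9.91% to 10.2% with Meis1-OE and 11.7%, 6.24% and 6.94% with YFP-CTRL. The range over the YFP-CTRL libraries was wider than the difference between the condition means, except for Itga8 and Itga1. With coding length in place of transcript length, Itga8 was at 1.24% in Meis1-OE EC, against 1.03%.

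**Figure D3:**
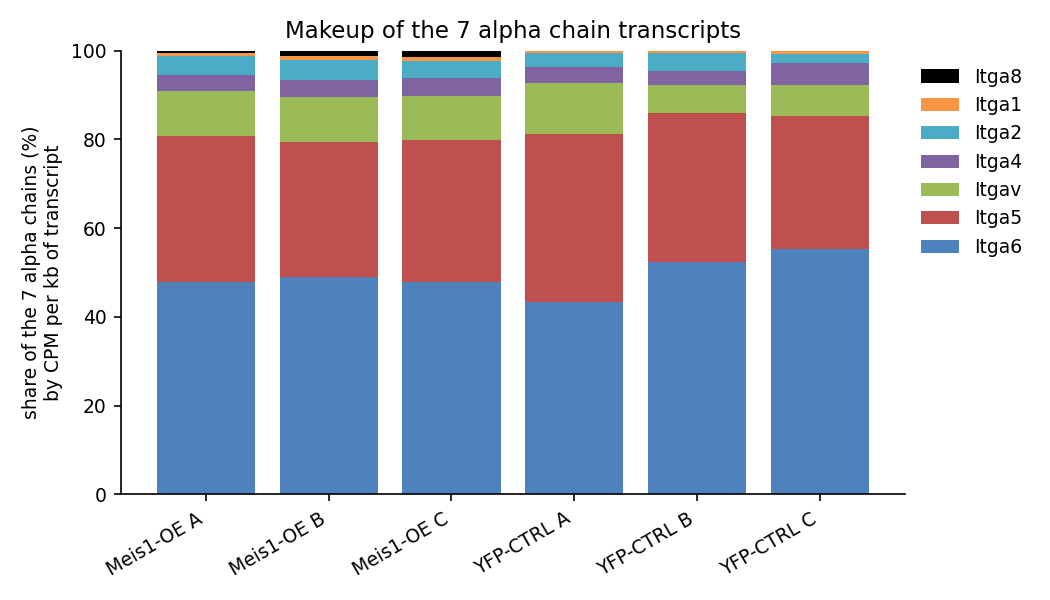
Share of each of the 7 alpha chains in their summed CPM per kb of transcript, in percent, 1 stacked bar per library. Itga6 (43.3% to 55.4%) and Itga5 (29.9% to 37.9%) make up most of every bar, and Itga8 is a thin cap of up to 1.42% on the Meis1-OE bars.

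The 5 genes whose log2(CPM + 0.5) over the 6 libraries was most like that of Itga8 were C1qtnf1, Fndc1, C3, Gbp4 and Gsta3, among 13013 tested genes with a mean of at least 1 CPM. Their Pearson correlations with Itga8 were 0.9995, 0.998, 0.998, 0.998 and 0.998, over 6 libraries that share the split into conditions, and are given as a description. Gbp4, an interferon-inducible GTPase gene, was at 34, 101.5 and 101 CPM with Meis1-OE and at 3.47 to 5.30 CPM with YFP-CTRL. C3, which encodes the central complement component, was at 1.57, 3.46 and 3.41 CPM and at most at 0.172 CPM. Each of these genes was lowest in Meis1-OE library A within its group, as was Itga8, which follows from their choice by likeness to Itga8. Gbp4 and Gsta3 belong to gene families with close copies, and how reads shared between copies were counted is not known. Among the other 9 chains the correlation with Itga8 was highest for Itgav (0.87) and Itga1 (0.81) and lowest for Itgb5 (-0.82). These values rest on the same split into conditions, restate the direction of each chain between them, and are a description only.

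The 16 other integrin chain genes of the mouse were examined in the same fit. Of these, 10 passed the filter, 2 were higher (Itgb2 and Itgal), 1 was lower (Itga3) and 7 did not pass the threshold. Among all tested genes, 4.14% were higher and 2.73% lower. Itgb2 and Itgal encode the beta2 and alphaL chains, which together form the leukocyte integrin LFA-1. Itgb2 was at 5.23, 6.65 and 7.21 CPM with Meis1-OE and at 0.736, 1.004 and 2.51 CPM with YFP-CTRL, a log2 fold change of 2.15 (standard error 0.44, adjusted p = 0.0343). It did not pass without Meis1-OE library A, B or C (adjusted p = 0.0900, 0.148 and 0.142) or without YFP-CTRL library B (0.134 from edgeR). Itgal was counted 16, 24 and 27 times with Meis1-OE and 1, 1 and 2 times with YFP-CTRL. The normalized ratio of its summed counts was 14.7 with an exact Poisson interval of 5.46 to 55.3 for counting error, and its adjusted p was 0.00774. It did not pass without Meis1-OE library B or C (0.0563 and 0.0520 from edgeR), or with the cell cycle score as a covariate (0.0502). Ptprc, which encodes the blood cell marker CD45, had at most 4 counts in any library.

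Itga3, which encodes another abundant laminin-binding alpha chain of these cells, fell. It was at 562, 490 and 489 CPM with Meis1-OE and at 713, 873 and 749 CPM with YFP-CTRL. No Meis1-OE library reached the lowest YFP-CTRL library. On the log2 scale it fell by 0.60 (standard error 0.12, adjusted p = 0.0351), with adjusted p-values of 0.0848, 0.203 and 0.188 without Meis1-OE library A, B or C, 0.121 without YFP-CTRL library B, 0.0701 on library totals and 0.0710 with the cell cycle score as a covariate. Itgb4, Itga7 and Itga9 had log2 fold changes of -0.14, 0.81 and 0.50, at adjusted p-values of 0.783, 0.257 and 0.197. Itgb8, Itga11, Itgam and Itgb6 had at most 3 counts in any library.

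**Figure D4:**
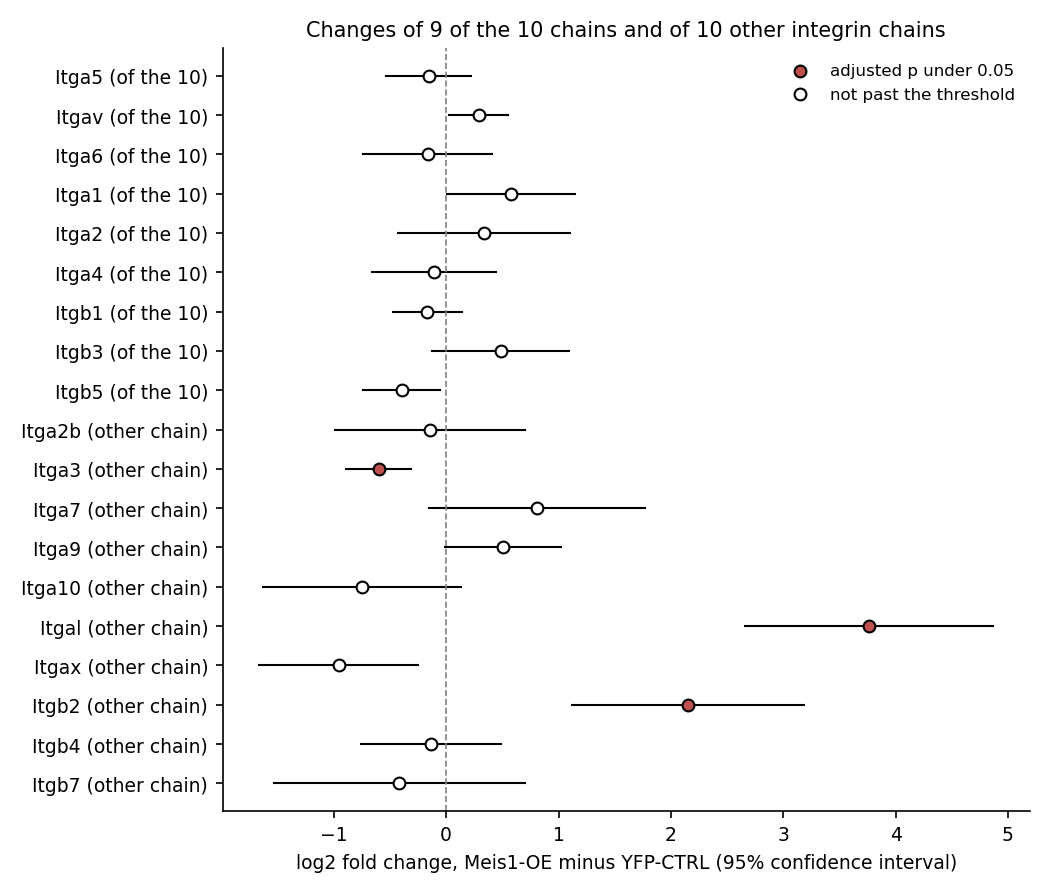
Log2 fold change in Meis1-OE against YFP-CTRL EC, with 95% confidence intervals from edgeR, for 9 of the 10 chains and 10 other integrin chains that passed the filter. Filled points passed an adjusted p of 0.05, which holds for Itga3 (lower), Itgb2 and Itgal (higher). Itga8 is left out because the set was chosen on it.

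Inside the cell, integrin tails are bound by adaptors and kinases. Of 35 genes for talins, kindlins, the ILK complex, focal adhesion kinases and related adaptors, 34 were tested, 1 was higher, 1 was lower and 32 did not pass. The shares of all tested genes called were 4.14% higher and 2.73% lower. Before adjustment, p was under 0.05 for 2 higher and 9 lower adaptor genes, against 26.2% of all tested genes in either direction. Groups did not overlap for 2 higher and 8 lower adaptor genes, against 17.2% and 15.9% of all tested genes. The median log2 fold change of the 34 was -0.08. Ptk2b, which encodes the kinase Pyk2, was at 1.46, 2.004 and 1.86 CPM with Meis1-OE and at 0.265, 0.392 and 0.220 CPM with YFP-CTRL, a log2 fold change of 2.59 (adjusted p = 0.00762, and 0.0567 and 0.0509 without Meis1-OE library B or C). Rap1b, a small GTPase that activates integrins, was at 202 to 238 CPM against 289 to 427 CPM, a log2 fold change of -0.75 (adjusted p = 0.0435). That call was lost without any one library other than YFP-CTRL library C (adjusted p = 0.0793 to 0.188), and it was 0.0621 on library totals and 0.171 with the cell cycle score as a covariate. The most abundant of the others, Tln1, Flna, Actn4 and Cav1, had log2 fold changes of 0.08, 0.08, 0.12 and -0.31, at adjusted p-values from 0.204 to 0.784.

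Of 41 genes for ligands of these receptors, 29 were tested, 7 were higher, 5 were lower and 17 did not pass, with a median log2 fold change of 0.13. Whether this share differs from that of the receptor chains was not tested. Among 12 tested RGD ligands, 5 were higher and 0 were lower by edgeR (7 and 1 at an unadjusted p under 0.05), with a median log2 fold change of 0.84. Of all tested genes, 4.14% were called higher and 2.73% lower, and 26.2% had an unadjusted p under 0.05 in either direction. The ligand lists were chosen with earlier results of these data known. Tgfb3, whose latency peptide carries an RGD motif, rose from 3.09, 3.82 and 5.68 CPM with YFP-CTRL to 90.8, 165 and 174 CPM with Meis1-OE, a log2 fold change of 5.09 (standard error 0.35, adjusted p = 0.00144, and up to 0.0172 without any one library). Vwf, which encodes von Willebrand factor, was at 24.3, 77.6 and 87.1 CPM with Meis1-OE and at 6.22 to 8.12 CPM with YFP-CTRL, a log2 fold change of 3.12 (adjusted p = 0.0120). Meis1-OE library A was again the lowest of its group for both genes.

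Spp1, which encodes osteopontin, Fn1, which encodes fibronectin, and Mfge8, a secreted RGD protein, had log2 fold changes of 1.49, 0.85 and 0.50, at adjusted p-values of 0.0228, 0.0376 and 0.0337 from edgeR. Without Meis1-OE library A, B or C or YFP-CTRL library B, these 3 did not pass (adjusted p = 0.0549 to 0.188), and neither did Fn1 without YFP-CTRL library A (0.0644) or Mfge8 with no filter on low counts (0.0641). With the cell cycle score as a covariate they were at 0.107, 0.132 and 0.0932. Vwf did not pass without Meis1-OE library B or C or YFP-CTRL library B (0.0626, 0.0555 and 0.0753), or with the covariate (0.0529 from edgeR). Npnt, which encodes nephronectin, the high-affinity ligand of alpha8beta1, was named for that role and with its values known. It was at 114, 152 and 151 CPM with Meis1-OE and at 27.8, 71.7 and 62.4 CPM with YFP-CTRL, a log2 fold change of 1.37 (95% interval 0.59 to 2.14, adjusted p = 0.0543). No library overlapped, but the test over all genes was missed. Ltbp1, Tgfb1, Thbs1 and Tnc had log2 fold changes of 0.14, 0.13, 0.82 and -1.76, at adjusted p-values of 0.773, 0.769, 0.398 and 0.0627.

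Laminin chains, the ligands of alpha6 and alpha3 integrins, mostly fell among those called. Of 9 tested, 1 was higher and 4 were lower, against 4.14% and 2.73% of all tested genes. Lama3 was at 19.02, 23.0 and 27.1 CPM with Meis1-OE and at 1.80, 3.77 and 1.85 CPM with YFP-CTRL, a log2 fold change of 3.22 (adjusted p = 0.00423, and up to 0.0267 without any one library). Lama5 and Lamb1, chains of the endothelial basement membrane, were at 1135 ± 70.6 and 290 ± 9.39 CPM in Meis1-OE EC and at 1967 ± 318 and 575 ± 159 CPM with YFP-CTRL (mean ± SD over 3 libraries). On the log2 scale Lama5 fell by 0.79 and Lamb1 by 0.99 (adjusted p = 0.0253 and 0.0326), and Lamc1 fell by 0.66 and Lama4 by 1.75 (adjusted p = 0.0465 and 0.0428). None of these 4 passed without Meis1-OE library A, B or C or YFP-CTRL library B (adjusted p = 0.0900 to 0.219), and Lamc1 also did not without YFP-CTRL library A (0.0802) or with at least 10 counts in every library (0.0516). On library totals Lama4, Lamb1 and Lamc1 were at 0.0529, 0.0545 and 0.0815, and with the cell cycle score as a covariate Lama4, Lama5 and Lamc1 were at 0.107, 0.0644 and 0.166 (edgeR). Lamb2, Lama2 and Lamb3 had log2 fold changes of 0.42, -0.73 and 1.37, at adjusted p-values of 0.0908 or more.

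Collagen chains had 1 call in each direction, where 4.14% of all tested genes were called higher and 2.73% lower. The median log2 fold change of the tested chains was -0.58, and 1 was positive. At an unadjusted p under 0.05 by edgeR, which 26.2% of all tested genes reached, 1 was higher and 3 were lower. Of 6 tested, Col5a1 rose (log2 fold change 1.43, adjusted p = 0.00314, and up to 0.0267 without any one library) and Col18a1, the source of endostatin, fell (-0.68, adjusted p = 0.0148). Col18a1 did not pass without Meis1-OE library A, B or C or YFP-CTRL library B (adjusted p = 0.0741, 0.120, 0.0955 and 0.0554). The basement membrane chains Col4a1 and Col4a2 had log2 fold changes of -0.23 and -0.48, at adjusted p-values of 0.464 and 0.0584. Col5a2 and Col6a1, at most at 0.990 and 0.968 CPM in any library, had -1.45 and -1.29 (adjusted p = 0.0726 and 0.197 from edgeR). Vcam1, the endothelial ligand of alpha4beta1, was at 77.0 to 85.3 CPM in Meis1-OE and at 73.5 to 81.3 CPM with YFP-CTRL, and with Icam2 it gave 0 calls among 2 tested ligands of the immunoglobulin family (adjusted p = 0.669 and 0.216 from edgeR, and 0 at an unadjusted p under 0.05). The remaining 3 genes of that family had at most 12 counts in any library.

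**Figure D5:**
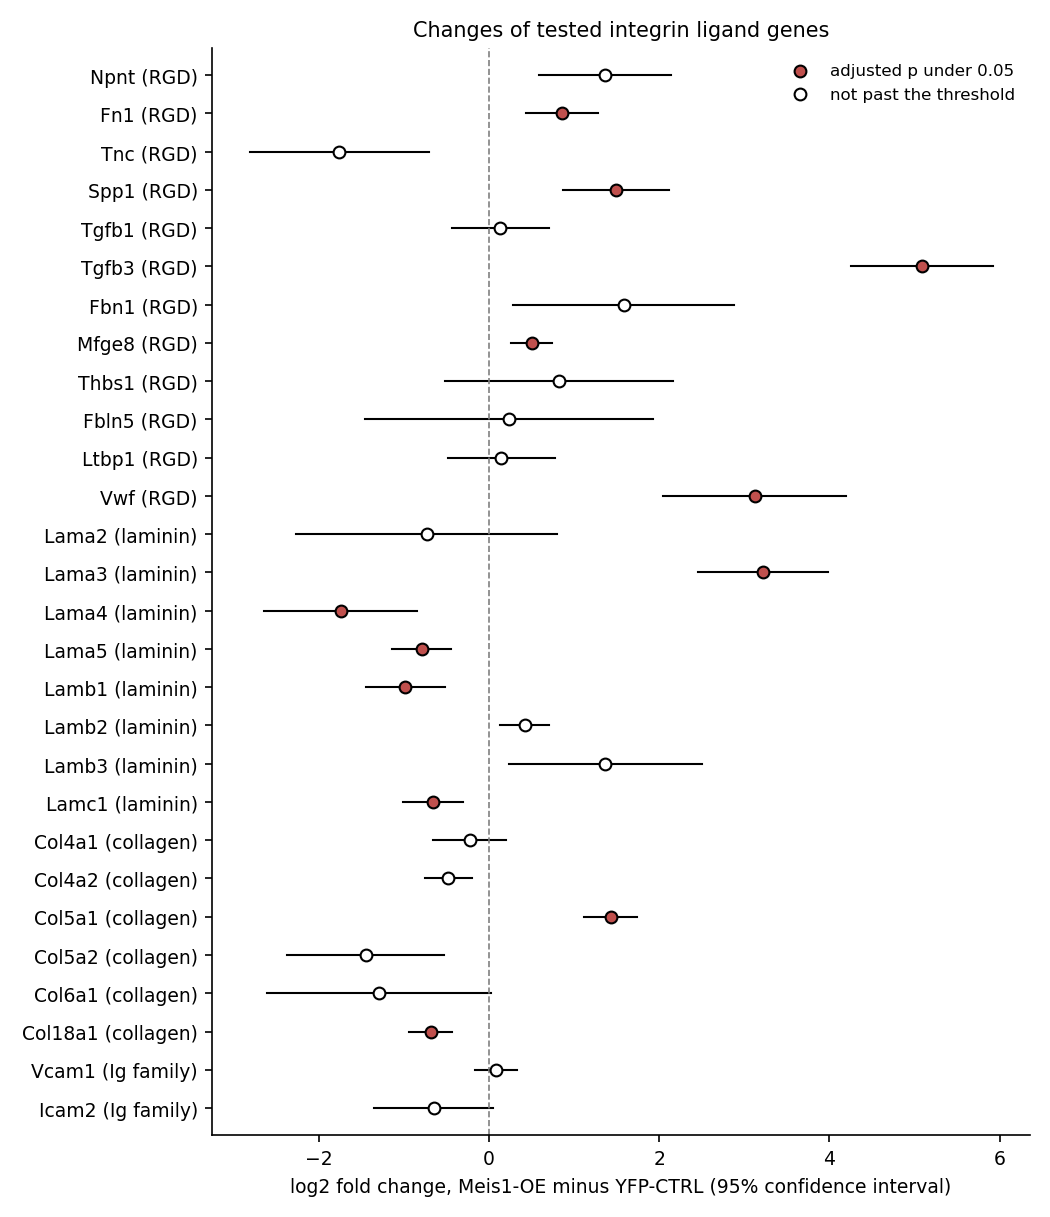
Log2 fold change in Meis1-OE against YFP-CTRL EC, with 95% confidence intervals from edgeR, for the tested genes of integrin ligands that are reported here, with their class in brackets. Filled points passed an adjusted p of 0.05, with Tgfb3, Lama3, Vwf, Spp1, Col5a1, Fn1 and Mfge8 to the right of 0 and Lama4, Lamb1, Lama5, Col18a1 and Lamc1 to the left.

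Markers of other cell types that express these integrins were read beside the chains. Pecam1 was at 768 to 1160 CPM and Cdh5 at 1181 to 2627 CPM over all libraries. These genes encode CD31 and VEC, on which the cells were sorted, so their presence does not test the endothelial label. Of 12 endothelial genes, 2 were higher, 1 was lower and 9 did not pass. For this list and the smooth muscle list below, the shares of all tested genes called were 4.14% higher and 2.73% lower. Vwf and Cldn5 were higher (Cldn5 with a log2 fold change of 1.81 and an adjusted p of 0.0398), and Tek was lower (-0.78, 0.0351). Of the 9, Kdr and Cdh5 had log2 fold changes of -1.23 and -0.70 (adjusted p = 0.0504 and 0.0535 from edgeR). Both were lower in every Meis1-OE library than in any YFP-CTRL library. Groups did not overlap for 3 higher and 3 lower of the 12, against 17.2% and 15.9% of all tested genes. Cldn5 and Tek did not pass without Meis1-OE library A, B or C or YFP-CTRL library B (0.0944 to 0.173), or with the cell cycle score as a covariate (0.120 and 0.0514 from edgeR). Smooth muscle cells express Itga8, and of 8 smooth muscle genes 4 were tested and 1, Des, was higher. Des had 20, 18 and 24 counts in Meis1-OE and 0, 2 and 2 with YFP-CTRL (adjusted p = 0.0150, and 0.0578 to 0.0850 without Meis1-OE library A, B or C or YFP-CTRL library B, and 0.0913 with the cell cycle score as a covariate). The summed level of the 8 was 282 to 311 CPM in Meis1-OE and 147 to 332 CPM with YFP-CTRL, nearly all of it from Smtn and Mylk. The defining smooth muscle markers Myh11, Cnn1, Tagln and Lmod1 were at most at 0.638 CPM in any library, and Acta2 was highest in YFP-CTRL library C (19.8 CPM) and at 0.993 to 3.32 CPM with Meis1-OE.

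Beside the lists below, 4.14% of all tested genes were called higher and 2.73% lower by edgeR. An unadjusted p under 0.05 was reached by 26.2% of them in either direction. Of 10 fibroblast and pericyte genes, 2 were tested and 0 passed by edgeR (1 was lower at an unadjusted p under 0.05), and Lum and Thy1 were at 0 in all libraries. Their summed level was 14.5 to 15.2 CPM in Meis1-OE and 17.9 to 52.0 CPM with YFP-CTRL, most of it Pdgfra. Of 9 macrophage genes, 3 were tested and 0 passed by edgeR (2 were higher at an unadjusted p under 0.05). These 2 were Csf1r (15, 26 and 18 counts with Meis1-OE, 1, 4 and 12 with YFP-CTRL) and Lyz2 (6, 40 and 37 against 8, 8 and 7). Both had a log2 fold change of 1.63 (adjusted p = 0.148 and 0.181 from edgeR), and Cd68 had -0.23 (0.653). C1qa, C1qb, C1qc, Tyrobp and Adgre1 were at 0 throughout. The summed level of 69.8 to 106 CPM in Meis1-OE and 65.1 to 140 CPM with YFP-CTRL was nearly all Cd68. Of 6 platelet and blood genes, 3 were tested and Gp9 was higher (log2 fold change 3.56, adjusted p = 0.0290, and 0.0807 to 0.135 without Meis1-OE library A, B or C or YFP-CTRL library B, and 0.0752 with the cell cycle score as a covariate), at 0.765 to 1.17 CPM with Meis1-OE. The summed level of the 6 was 2.76 to 3.74 CPM in Meis1-OE and 2.15 to 3.25 CPM with YFP-CTRL. Of the 15 cell cycle genes, 0 passed the threshold by edgeR (2 were higher at an unadjusted p under 0.05) and 15 had a positive log2 fold change, with a median of 0.93. The part of these markers and of growth state in the values of the integrin chains was not tested. The covariate fits given above cannot tell growth state and condition apart.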

How the data were processed

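For 6 ribodepleted RNA-seq libraries the table that the authors deposited holds estimated counts for each gene, without normalization (genome build mm10 in the submitters' processing notes, with aligner, counting tool and annotation not given in the sources used here). The study states 3 independent replicates per condition. Estimated counts were rounded to whole numbers and fitted by edgeR 4.0.16 under R 4.3.3 (TMM factors, filterByExpr, quasi-likelihood test, Benjamini-Hochberg adjustment over all genes tested), with DESeq2 1.42.0, the program of the study, as an alternative. Standard errors were derived from the F statistic. Low counts were read against a floor of 3 counts per library. Figures were drawn with matplotlib 3.10.9.

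The 10 chains and all gene lists were chosen with earlier results of these data known. Named were the 10 chains, list genes past the threshold, up to 4 others per list with the highest mean CPM, Meis1, the neighbours of Itga8 and the 5 genes most like it, with 1 ligand gene not reported here. Lengths came from the GENCODE vM1 transcripts by symbol (longest protein-coding transcript), and positions and promoters from RefSeq on GRCm38.p6. Alternatives were other scaling, other filters, DESeq2, each library left out, the column letter as a block, the cell cycle score as a covariate, and coding length.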

Additional observations from a re-analysis of the deposited data

How the results depend on the processing

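For the 9 chains other than Itga8, 13 alternatives gave 117 log2 fold changes. Of these, 111 kept their direction and stayed short of the threshold, 2 passed it (Itga2 without YFP-CTRL library B and Itgb5 without YFP-CTRL library C) and 4 changed sign: Itga4 on library totals (0.038) and without YFP-CTRL library C (leave-one-out range -0.34 to 0.12), Itga5 without YFP-CTRL library B (-0.29 to 0.04) and Itga6 without the same library (-0.43 to 0.051). The log2 fold change of Itga8 lay between 7.40 and 8.74. The number of the 9 chains called ran from 0 to 1 higher and 0 to 1 lower with single libraries left out.

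Other counts moved by over 1.5 times as follows. With single libraries left out, the counts higher and lower were 115 to 2717 and 16 to 2498 for all genes, 0 to 2 and 0 to 1 for other integrin chains, 0 to 4 and 0 to 8 for adaptors and 3 to 11 and 0 to 8 for ligands. On library totals they were 1048 and 180 for all genes, with 0 other chains, 0 adaptors and 2 ligands lower. DESeq2 called 1128 and 1115 genes, with 4 adaptors and 8 ligands lower. With the cell cycle score as a covariate, 363 genes, 4 ligands and 1 other chain were higher. With at least 10 counts in every library, 1 other chain and 0 adaptors were higher. The labels number the replicates and the columns carry letters. With the column letter as a replicate block, 189 genes, 0 other chains, 0 adaptors and 1 ligand were lower. Deviations from the group means correlated at 0.26, 0.17 and 0.08 for letters A, B and C, and Meis1-OE library C correlated best with YFP-CTRL library B (0.25), so letters were not taken to pair the libraries.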
